A study of Equus caballus with 15 samples.

Results

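Neutrophil attracting CXC chemokines of equine macrophages were examined as a set of 7 genes, found in the data by their symbols, with no threshold on a measured value. The set holds the ligands CXCL1, CXCL2, CXCL3, CXCL6 and CXCL8 and the receptors CXCR1 and CXCR2. Of these, 3 had a row under their own symbol among the 16932 genes listed, namely CXCL1, CXCL6 and CXCL8, and all 3 were among the 11628 genes tested. CXCL2, CXCL3, CXCR1 and CXCR2 had no such row and are not analysed here. The study asked how orthobiologic therapies (OTs), which are injected into arthritic joints of horses, act on macrophages activated by IL-1ß. Blood mononuclear cells of 2 geldings, 1 aged 3 years and 1 aged 5, were cultured for 5 days with human M-CSF at 30 ng/ml, and macrophages of this kind formed each of 5 groups of 3 libraries. Which gelding gave the macrophages of each library is not known here. Untreated macrophages received neither cytokine nor OT, and IL-1ß macrophages received IL-1ß at 10 ng/ml for 24 h. The labels place RNA collection directly after washing at the end of these 24 h, whereas the methods describe a further 24 h of culture after washing, so whether the values stand for the end of treatment or a later time is not settled. The other 3 groups received the same IL-1ß together with an OT that made up 25% of the medium. These OTs were conditioned medium of bone marrow mesenchymal stromal cells (MSC-CM), platelet rich plasma lysate (PRP lysate) or autologous conditioned serum (ACS, also called IRAP). Each was prepared from 3 donor horses, aged 2, 5 and 5 years, so the OT libraries replicate the product, while the study describes its untreated and IL-1ß libraries as technical replicates. P-values here therefore measure the spread between these libraries and not between horses that gave macrophages.

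CXC chemokines are small secreted proteins with a pair of cysteines set apart by another residue near the amino terminus. Those that carry the motif glutamate, leucine and arginine before these cysteines bind CXCR1 or CXCR2 on neutrophils and draw them out of blood into inflamed tissue, the joint among them. Macrophages make them after IL-1 or bacterial products through NF-kB, and the messenger RNAs are short lived. CXCL8 (interleukin 8) and CXCL6 (granulocyte chemotactic protein 2) bind both receptors, whereas CXCL1, founder of the growth regulated oncogene or GRO group, acts mainly through CXCR2. The study also measured GRO and IL-8 protein in culture supernatants. Those protein values are not analysed here, and what follows is messenger RNA alone.

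The 3 genes lay on 1 stretch of horse chromosome 3 in EquCab3.0. CXCL1 (ENSECAG00000010560) was listed at chr3:63470014-63586177, CXCL6 (ENSECAG00000012742) at chr3:63638101-63640268 and CXCL8 (ENSECAG00000015342) at chr3:63717745-63720939. The spans were 2168 bp for CXCL6 and 3195 bp for CXCL8, each the whole gene from first to last exon, but 116164 bp for CXCL1, whose model held 2 transcript versions. In the RefSeq order of another, thoroughbred assembly, 2 named genes stand between CXCL1 and PPBP, CXCL2 and MIP-2BETA, and neither had a row under its symbol here. MIP-2ß is another name for CXCL3 in humans. The value listed as CXCL1 may therefore also hold reads of these close relatives, which cannot be told apart in it, and each CXCL1 value below carries that limit. Between CXCL1 and CXCL6 the deposited values held PPBP, which encodes the platelet basic protein precursor of the chemokine CXCL7, and an unnamed gene at a mean of 0.682 CPM (ENSECAG00000012560). Whether that unnamed gene is CXCL2, MIP-2BETA or another gene was not tested.

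**Figure D1:**
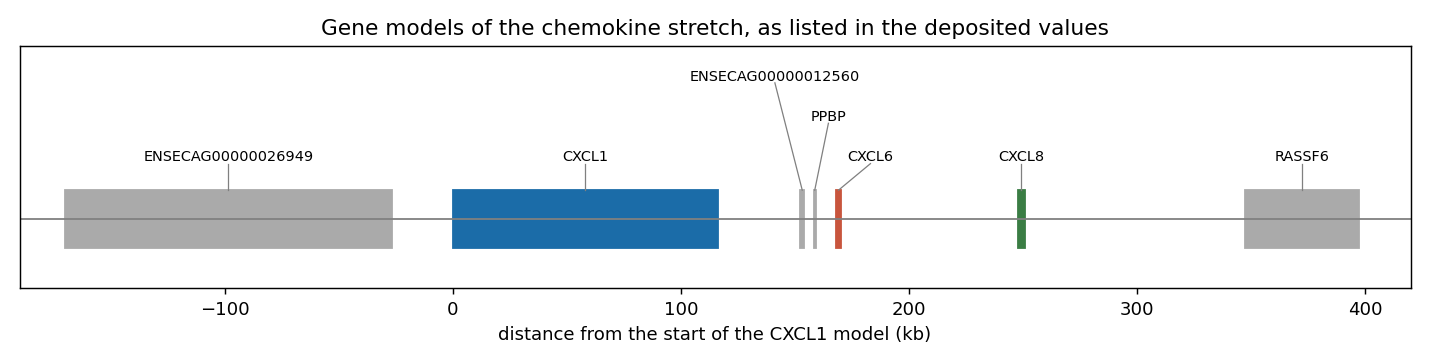
Gene models around the 3 chemokine genes (CXCL1 blue, CXCL6 red, CXCL8 green, other listed genes grey), with distance in kb from the start of the CXCL1 model on the horizontal axis. The CXCL1 model spanned 116.2 kb, against 2.168 kb for CXCL6 and 3.195 kb for CXCL8.

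Values are CPM (counts scaled to library size), and the scale of a library stood for between 28410739 and 47894071 reads. The listed genes summed to 982495 to 991421 CPM, so a small part of these reads lay outside them. Any 1 of the chemokine genes held 3804 to 128041 reads in a library, so counting error was small beside the spread between libraries. IL-1ß replicate 3 and PRP lysate replicate 1 stood apart from the others on the first principal component, at scores of -103 and -51.7 against -20.7 to 26.6. Macrophage markers were all detected, though CD14, ITGAM and MARCO stayed at 1.102 to 4.72 CPM in the group means. Summed, they ranged from 3799 to 6662 CPM with IL-1ß alone, 4491 to 6563 untreated, 4528 to 5557 after MSC-CM, 3863 to 5175 under ACS and 2281 to 4473 under PRP lysate, the treatment with the highest chemokine means. The scavenger receptor CD163 averaged 563 CPM with IL-1ß, 11.35 under PRP lysate and 64.6 under ACS, and the M-CSF receptor CSF1R 376, 182 and 315 CPM. The mannose receptor MRC1 averaged 2279, 1385 and 2206 CPM, the lysosomal protein CD68 1630, 1660 and 1631 CPM and the scavenger receptor MSR1 158, 154.5 and 155 CPM in the same groups. Summed T and NK cell markers reached 1175 to 2618 CPM, with CD3E at 172 to 322 CPM, so the cultures also held lymphocyte transcripts. Of 10 neutrophil markers 6 were listed, and apart from CSF3R none exceeded a group mean of 2.02 CPM. CSF3R, which macrophages also express, had group means from 340 to 354 CPM in untreated, IL-1ß and MSC-CM macrophages, 523 CPM with PRP lysate and 653 CPM with ACS. Platelet markers, mostly ITGB3, summed to 33.2 to 392 CPM, stromal markers to at most 20.4 CPM and B cell markers to at most 48.2 CPM. Endothelial markers, mostly PECAM1, summed to 63.2 to 153 CPM with PRP lysate or ACS and to 185 to 518 CPM in the other groups. The part of these cell markers in the chemokine values was not tested.

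CXCL1 was most abundant with PRP lysate and with ACS and least abundant with MSC-CM. Untreated macrophages held 721, 627 and 1290.2 CPM in replicates 1 to 3. IL-1ß macrophages held 1415, 989 and 1128 CPM, within or just above that range. With MSC-CM the libraries held 729, 724 and 858 CPM, the narrowest spread of the 5 groups. PRP lysate libraries held 1829, 3061 and 2505 CPM, and those with ACS 2613, 1859 and 2432 CPM. Every PRP lysate and ACS library thus lay above every library of the other 3 groups. Group means descended from PRP lysate at 2465 ± 617 CPM (SD, n = 3) over ACS at 2301 ± 393, IL-1ß alone at 1177 ± 217 and untreated at 879 ± 359 to MSC-CM at 770.4 ± 75.7, and no pair of neighbours in this order passed the test.

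CXCL6 was lowest in untreated macrophages, at 111, 106.6 and 164 CPM. IL-1ß libraries held 526, 296 and 358 CPM, all above the untreated ones. With MSC-CM the values were 167, 126 and 199.8 CPM, among or above the untreated libraries and below each IL-1ß library. The PRP lysate libraries split, with 258 CPM in replicate 1 against 960.2 and 882 CPM in replicates 2 and 3. ACS libraries held 631, 346 and 393 CPM and overlapped those of IL-1ß alone. Means ran from 700.1 ± 385 CPM with PRP lysate (SD, n = 3) through 457 ± 153 with ACS, 393 ± 119 with IL-1ß and 164 ± 36.9 with MSC-CM to 127 ± 31.6 untreated. Here too no neighbouring groups differed beyond the test's threshold.

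CXCL8 had its group means in the same order as CXCL1, with untreated and IL-1ß macrophages overlapping and MSC-CM macrophages lowest. The untreated libraries held 655, 598 and 939.7 CPM and the IL-1ß libraries 958, 686 and 854 CPM. With MSC-CM the values were 395, 402 and 645 CPM, each below the lowest IL-1ß library. PRP lysate again split into 907 CPM in replicate 1 against 2874 and 3058 CPM in the others, so that its lowest library lay within the range of IL-1ß alone. ACS libraries held 1748, 1233 and 1927 CPM, above all untreated, IL-1ß and MSC-CM libraries. Means were 2279.8 ± 1192 CPM with PRP lysate (SD, n = 3), 1636 ± 360 with ACS, 833 ± 137 with IL-1ß, 731 ± 183 untreated and 481 ± 142 with MSC-CM, and again no pair of neighbours passed the test.

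**Figure D2:**
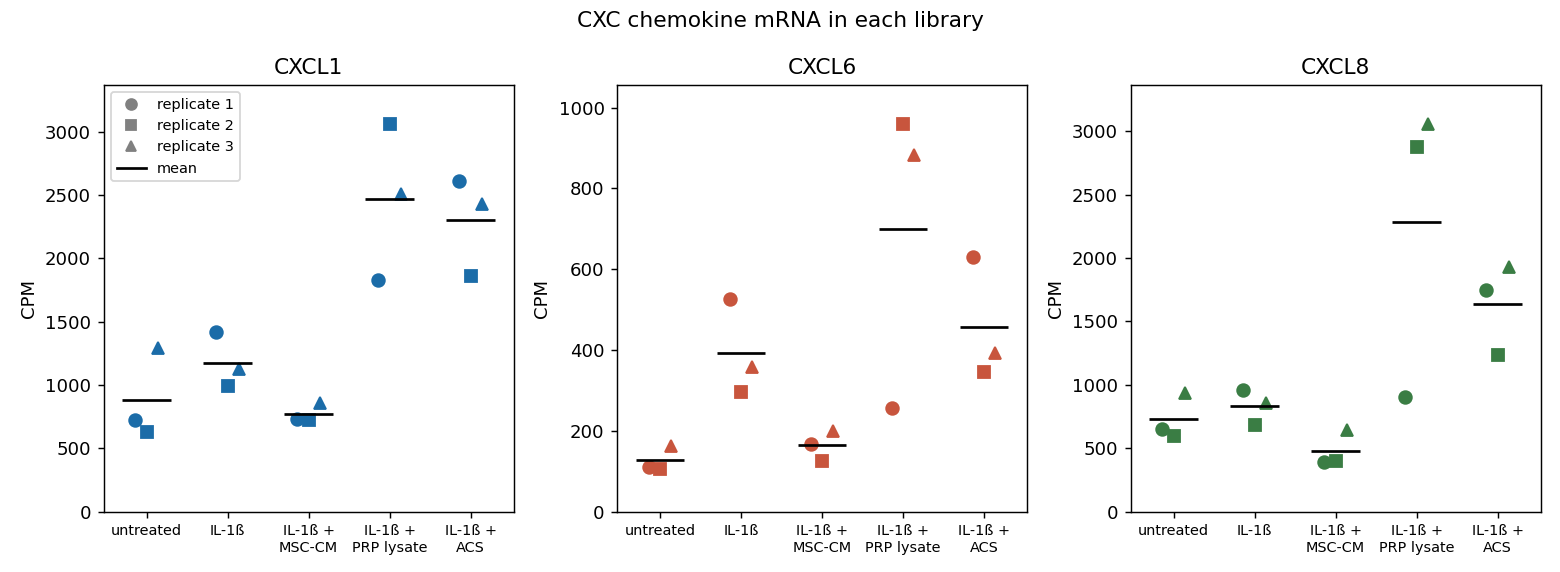
CPM of CXCL1, CXCL6 and CXCL8 (vertical axes, linear and from 0, scaled per gene) in each of 15 libraries, by group, with the replicate number as symbol (for ACS a running number only) and the group mean as a bar. PRP lysate replicate 1 sat below its 2 companions for all 3 genes, most clearly for CXCL6 (258 against 882 and 960.2 CPM).

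Summed over the 3 genes, the chemokines took 0.174% of reads on average in untreated macrophages, 0.240% with IL-1ß and 0.142% after MSC-CM. The share was 0.545% under PRP lysate and 0.439% under ACS. PRP lysate replicate 1, at 0.299%, was the only PRP lysate library within reach of the highest IL-1ß library, at 0.290%. In bulk libraries such as these, fewer cells of a type and less RNA per cell cannot be told apart.

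Differences between groups were tested with limma on log2(CPM + 1), in 1 model of all 15 libraries with p-values adjusted by the Benjamini-Hochberg method over all genes of a comparison. A gene was called at an adjusted p of at most 0.05 and a change of at least 2-fold. Over 10 comparisons the 3 genes gave 30 tests, of which 9 were called, all of them higher in the group treated with PRP lysate or ACS. Comparisons with the same control share its libraries and are not independent. Since the 3 genes are related neighbours whose values rose and fell together across libraries, they are not separate observations of a treatment either.

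**Figure D3:**
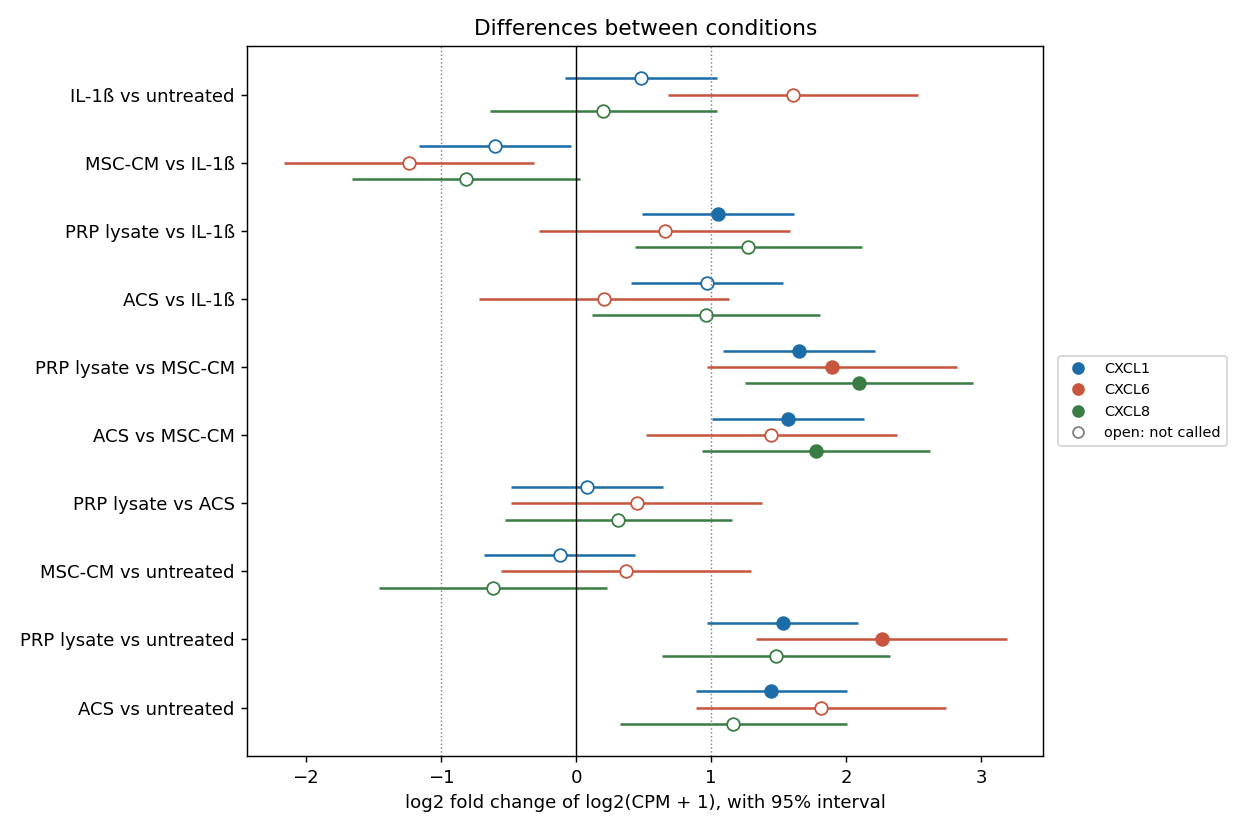
Log2 fold change of each chemokine gene in 10 comparisons on the log2(CPM + 1) scale (first group minus second, horizontal axis), with 95% intervals as lines, filled points for called differences and dotted lines at 2-fold. The filled points lay to the right of 0 in the 5 comparisons of PRP lysate or ACS that held any, up to 2.26 for CXCL6 with PRP lysate against untreated.

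The effect of IL-1ß alone was largest for CXCL6, which averaged 3.04-fold the untreated level on this scale but was not called. CXCL6 had a log2 fold change of 1.61 (SE 0.429, 95% interval 0.68 to 2.53, adjusted p = 0.146). CXCL1 had a log2 fold change of 0.48 (interval -0.08 to 1.04, adjusted p = 0.448) and CXCL8 one of 0.20 (interval -0.64 to 1.05, adjusted p = 0.805). None of the 3 genes was called, where 0.292% of all genes tested were. CXCL6 was 1 of 3 chemokine genes with no overlap between the groups, as were 16.2% of all genes tested. DESeq2 on recovered reads called CXCL6 (log2 fold change 1.68, adjusted p = 0.00516), and so did limma without the 2 libraries that stood apart (1.65, adjusted p = 0.0136), the latter chosen after the data were seen.

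MSC-CM with IL-1ß gave lower values of all 3 chemokine genes than IL-1ß alone, with no overlap between the groups, yet no gene in the whole table was called in this comparison. Group means were 770.4 against 1177 CPM for CXCL1, 164 against 393 CPM for CXCL6 and 481 against 833 CPM for CXCL8. Log2 fold changes were -0.60 for CXCL1, -1.24 for CXCL6 and -0.82 for CXCL8, each with an adjusted p of 0.705. Their 95% intervals ran from -1.16 to -0.04, from -2.16 to -0.31 and from -1.66 to 0.03. The share of tested genes called was 0%, while 8.79% had groups apart in either direction and 1.54% had MSC-CM libraries wholly below those of IL-1ß, as these 3 of 3 did. Unadjusted p-values by limma were 0.0379 for CXCL1, 0.0128 for CXCL6 and 0.0567 for CXCL8, and 651 of all genes had one below 0.05. edgeR called 0 genes and DESeq2 called 2, neither a chemokine gene of this set. The median log2 fold change over all genes was 0.16 here, and after median-ratio scaling -0.0024, beside a chemokine median of -0.82.

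PRP lysate with IL-1ß gave a called rise of CXCL1, whose level was 2.07-fold that with IL-1ß alone, and higher means of the other 2 genes that were not called. CXCL1 had a log2 fold change of 1.05 (SE 0.260, 95% interval 0.49 to 1.61, adjusted p = 0.0341). CXCL8 had a larger but more variable difference of 1.28 (SE 0.390, interval 0.43 to 2.12, adjusted p = 0.0881), and CXCL6 one of 0.66 (SE 0.429, interval -0.27 to 1.58, adjusted p = 0.480). One of 3 genes called compares with 3.09% of all genes tested, and 1 of 3 without overlap with 15% of all genes. Without PRP lysate replicate 1, all 3 genes were called, at log2 fold changes of 1.25 for CXCL1 (adjusted p = 0.0169), 1.27 for CXCL6 (adjusted p = 0.0272) and 1.84 for CXCL8 (adjusted p = 0.00170). The CXCL1 call was close to both limits, since it was lost in 11 of 15 alternatives, such as median-ratio scaling (log2 fold change 0.95, adjusted p = 0.0521) and leaving out IL-1ß replicate 3 (1.03, adjusted p = 0.0613).

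ACS with IL-1ß gave CXCL1 and CXCL8 levels of 1.96-fold and 1.95-fold those with IL-1ß alone without passing the test, and CXCL6 levels that overlapped. The log2 fold change was 0.97 for CXCL1 (SE 0.260, interval 0.41 to 1.53, adjusted p = 0.0624), just short of both limits. It was 0.96 for CXCL8 (SE 0.390, interval 0.12 to 1.80, adjusted p = 0.201) and 0.21 for CXCL6 (interval -0.72 to 1.13, adjusted p = 0.752). None of the 3 was called, against 2.21% of all genes tested. ACS libraries lay wholly above those of IL-1ß for 2 of the 3 genes, and the groups were apart in 26.2% of all genes. Without IL-1ß replicate 1, CXCL1 was called (log2 fold change 1.11, adjusted p = 0.0374). Without ACS replicate 1, the CXCL6 difference turned to -0.0503.

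Between OTs, PRP lysate gave higher levels than MSC-CM of all 3 chemokine genes, by 3.14-fold for CXCL1, 3.72-fold for CXCL6 and 4.26-fold for CXCL8. On the log2 scale these were 1.65 (SE 0.260, adjusted p = 0.00270), 1.89 (SE 0.429, adjusted p = 0.0237) and 2.09 (SE 0.390, adjusted p = 0.00763). All 3 were called and all 3 had groups apart, against 2.61% and 19.4% of all genes tested. CXCL1 passed in each of 15 alternatives, whereas CXCL6 lost the call when any 1 library other than PRP lysate replicate 1 was left out (adjusted p from 0.0627 to 0.109). With the replicate number as a block, in a fit without ACS, CXCL1 and CXCL8 passed (adjusted p = 0.0237 and 0.0297) and CXCL6 did not (adjusted p = 0.0912).

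ACS likewise gave higher CXCL1 and CXCL8 than MSC-CM. CXCL1 was 2.96-fold higher (log2 fold change 1.57, SE 0.260, adjusted p = 0.00759) and CXCL8 3.43-fold higher (1.78, SE 0.390, adjusted p = 0.0361). CXCL6, at a log2 fold change of 1.44 (interval 0.52 to 2.37, adjusted p = 0.125), was not called. Thus 2 of 3 genes were called against 1.23% of all genes tested, and all 3 had groups apart against 35.1%. CXCL1 passed in each of 13 alternatives, whereas CXCL8 lost the call when any 1 library of either group was left out (adjusted p from 0.0739 to 0.150).

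PRP lysate and ACS could not be separated by these genes. The log2 difference, PRP lysate minus ACS, was 0.08 for CXCL1 (95% interval -0.48 to 0.64), 0.45 for CXCL6 (interval -0.48 to 1.38) and 0.31 for CXCL8 (interval -0.53 to 1.16), with adjusted p-values from 0.842 to 0.911. None was called, against 0.0946% of all genes tested, and all 3 overlapped, where 15.6% of all genes did not. These intervals still allow a difference of over 2-fold for CXCL6 and CXCL8, so the result does not show that both products act alike.

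Set against untreated macrophages, which received no IL-1ß, the OT groups gave 3 calls in all. PRP lysate gave called rises of CXCL1 (2.88-fold, log2 1.53, adjusted p = 0.00644) and CXCL6 (4.80-fold, log2 2.26, adjusted p = 0.0134), and a CXCL8 difference of 1.48 that was not called (adjusted p = 0.0701). These 2 calls compare with 1.6% of all genes tested, and 2 of 3 genes with groups apart with 18.6%. ACS gave a called rise of CXCL1 (2.72-fold, log2 1.45, adjusted p = 0.0293), beside 1.81 for CXCL6 (adjusted p = 0.120) and 1.16 for CXCL8 (adjusted p = 0.352). That is 1 of 3 genes against 0.37% of all genes tested, with 3 of 3 groups apart against 26.3%. Without PRP lysate replicate 1, CXCL8 was called against untreated (2.05, adjusted p = 0.00210), while the CXCL6 call was lost without untreated replicate 1 or 2 or PRP lysate replicate 3 (adjusted p from 0.0633 to 0.0760) and the ACS call of CXCL1 without any 1 library but untreated replicate 3 (adjusted p from 0.0818 to 0.185). MSC-CM with IL-1ß lay near the untreated level, at log2 differences of -0.12 for CXCL1 (interval -0.68 to 0.44), 0.37 for CXCL6 (interval -0.56 to 1.295) and -0.61 for CXCL8 (interval -1.46 to 0.23). None of these was called, against 0.662% of all genes tested, and all 3 overlapped, where 30.8% of all genes did not.

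The ratio between a pair of chemokine genes within a library does not depend on how libraries are scaled, and it was not the same in all groups. Untreated macrophages held 5.88, 5.60 and 5.74 CXCL8 reads per CXCL6 read, a mean of 5.74 ± 0.138 (SD, n = 3), although CXCL8 itself ranged from 598 to 939.7 CPM among these libraries. IL-1ß macrophages held 1.82, 2.32 and 2.39, a mean of 2.18 ± 0.308. No OT group returned to the untreated ratio, with 2.37 to 3.23 under MSC-CM, 2.99 to 3.52 under PRP lysate and 2.77 to 4.90 under ACS. PRP lysate replicate 1, low in both genes, had a ratio of 3.52 beside 2.99 and 3.47 in its companions. The log2 ratio was lower by 1.41 with IL-1ß than untreated, and this difference stayed between -1.48 and -1.29 when any 1 library was left out.

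CXCL6 per CXCL1 read moved the other way. This ratio was 0.154, 0.170 and 0.127 untreated and 0.372, 0.299 and 0.317 with IL-1ß, a log2 difference of 1.13 (between 1.02 and 1.23 with any 1 library left out). It was lower than with IL-1ß alone under MSC-CM (log2 difference -0.64) and under ACS (-0.76), with no overlap, while the PRP lysate libraries ranged from 0.141 in replicate 1 to 0.352. CXCL8 per CXCL1 read overlapped in all 10 comparisons. Over 3 ratios and 10 comparisons, groups were apart in 10 of 30. Each of these had a two-sided exact permutation p of 0.1, the smallest that 3 against 3 libraries allow, and an adjusted p of 0.3 over the 30, so none could pass 0.05.

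**Figure D4:**
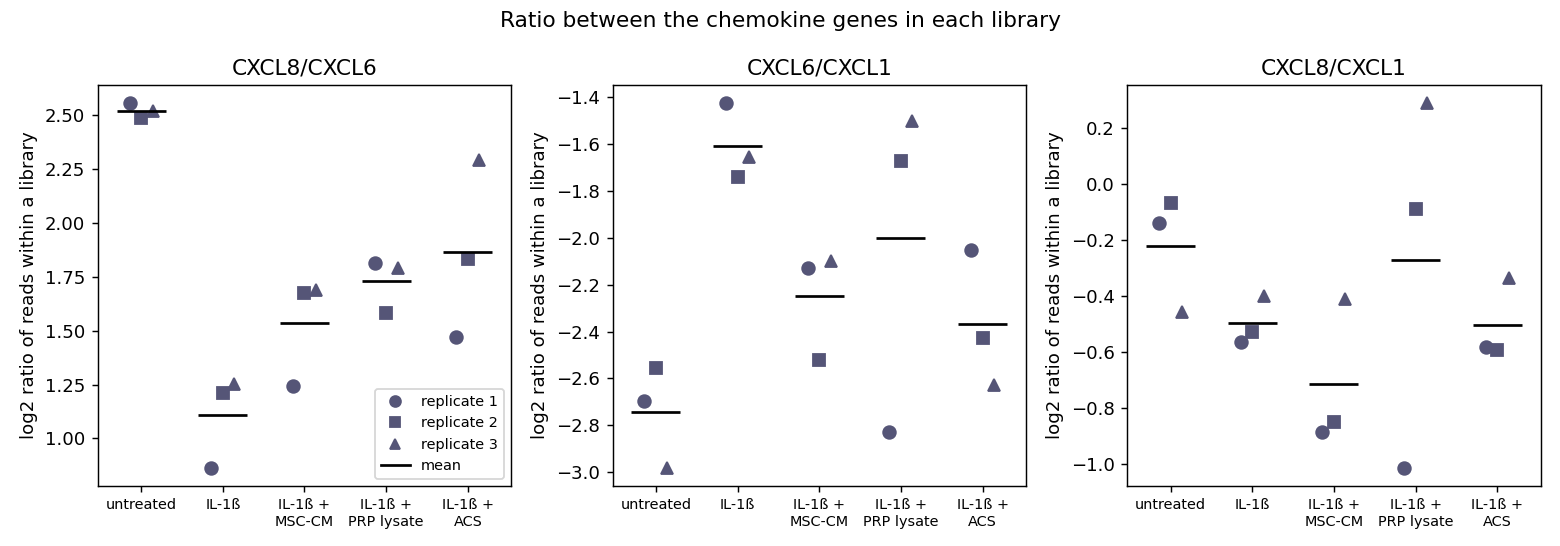
Log2 ratio of reads between the chemokine genes within each library (vertical axes, each panel with its own range), by group, with replicate symbols and group means as bars. Untreated libraries sat together at 2.49 to 2.56 for CXCL8/CXCL6, above every library of the other 4 groups.

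Across the 15 libraries, as a description, CXCL1 and CXCL8 were the pair of chemokine genes most alike (Pearson r = 0.930, Spearman rho = 0.929 on log2(CPM + 1)), followed by CXCL1 and CXCL6 (r = 0.880, rho = 0.900) and CXCL6 and CXCL8 (r = 0.865, rho = 0.843). The libraries fall into 5 groups and share their scaling, so these values mix differences between groups with those within them. After group means were removed, r was 0.779, 0.787 and 0.911 for the same pairs, and PRP lysate replicate 1 contributes to each. Outside the set, the genes most like CXCL6 were CSF3, which encodes the granulocyte growth factor G-CSF (r = 0.950, rho = 0.957), its neighbour PPBP (r = 0.949, rho = 0.943) and IL1B, the gene for IL-1ß itself (r = 0.920, rho = 0.854). Their likeness to CXCL6 within groups was 0.934, 0.889 and 0.954. For CXCL8 they were IL31, a cytokine of itch (r = 0.946, rho = 0.943), TREM1, a receptor that amplifies myeloid inflammation (r = 0.896, rho = 0.904), and MYH11, a smooth muscle myosin listed at group means of only 0.433 to 2.65 CPM (r = 0.886, rho = 0.714). IL31 and TREM1 were low as well, at group means of 0.290 to 10.0 and 1.63 to 10.3 CPM. For CXCL1 the most alike were the unnamed ENSECAG00000029340, at group means of 0.778 to 5.16 CPM, and ENSECAG00000036967 (r = 0.879 for each, rho = 0.836 and 0.739) and IL13, a type 2 cytokine (r = 0.878, rho = 0.721). Within groups the likeness of these 3 to CXCL1 was 0.178, 0.485 and 0.0225, so it came mainly from group means.

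Among the other CXC ligands, 8 of 11 listed had a row and 6 were tested, and 4 were called in at least 1 of the 10 comparisons, as were 4.98% of all genes tested. PPBP encodes a further ligand of CXCR2 that attracts neutrophils. Its means were 1.97 ± 0.990 CPM untreated and 11.5 ± 0.592 CPM with IL-1ß alone. Among the OTs, MSC-CM gave 4.97 ± 0.720, PRP lysate 27.2 ± 14.8 and ACS 11.6 ± 4.42 CPM. PPBP was called with IL-1ß alone (log2 fold change 2.12, SE 0.403, adjusted p = 0.0471). It was also higher with PRP lysate than with MSC-CM (2.06, adjusted p = 0.0103) and than untreated (3.11, adjusted p = 0.00109), and higher with ACS than untreated (2.07, adjusted p = 0.0433). Platelets carry PPBP protein and RNA. Of the platelet marker list 6 of 9 genes were listed. ITGB3, which macrophages also express, averaged 226 CPM untreated, 102 with IL-1ß, 112 after MSC-CM, 273 under PRP lysate and 259 under ACS. ITGA2B averaged 1.44 to 2.27 CPM over the groups, and GP9, GP1BA and TUBB1 at most 0.422 CPM. The part of platelet RNA in the PPBP values was not tested.

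CXCL10 and CXCL11, interferon inducible ligands of CXCR3 that attract T cells and not neutrophils, were highest in untreated macrophages. CXCL10 averaged 146 ± 41.4 CPM untreated and 49.5 ± 17.4 CPM with IL-1ß, a called decrease (log2 fold change -1.56, adjusted p = 0.0495). Without IL-1ß replicate 3, which stood apart, 0 of the 6 ligands were called for IL-1ß against untreated, so that the PPBP and CXCL10 calls were both lost. In IL-1ß replicates 1 to 3, PPBP held 12.1, 11.2 and 11.1 CPM and CXCL10 67.4, 48.2 and 32.7 CPM. CXCL11 averaged 73.9 ± 23.4 CPM untreated, 27.0 ± 2.49 with IL-1ß and 7.79 ± 5.43 with PRP lysate, which was lower than with IL-1ß alone (-1.90, adjusted p = 0.0129). Both were below untreated in all 3 OT groups, by log2 values of -1.90 to -2.27 for CXCL10 and -2.23 to -3.27 for CXCL11, all called. These groups also received IL-1ß, and CXCL11 was already lower by -1.38 with IL-1ß alone (adjusted p = 0.172). Relative to IL-1ß alone, CXCL10 changed by -0.71 after MSC-CM, without overlap. Its changes of -0.34 under PRP lysate and -0.55 under ACS came with overlap, and none of the 3 was called. CXCL11 changed by -0.85 after MSC-CM and -1.02 under ACS, without overlap but not called. CXCL13, the B cell attractant, was lower with PRP lysate than with MSC-CM (7.59 ± 1.70 against 35.8 ± 12.05 CPM, log2 fold change -2.06, adjusted p = 0.0460). As a list, the other ligands had a median log2 fold change of -0.47 for PRP lysate against IL-1ß, where the 3 genes of the set had 1.05 and all genes 0.11. PPBP, itself a neutrophil attractant in that list, had 1.00 (adjusted p = 0.209). For MSC-CM and ACS against IL-1ß the list medians were -0.51 and -0.43, those of the 3 genes -0.82 and 0.96 and those of all genes 0.16 and 0.13.

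**Figure D5:**
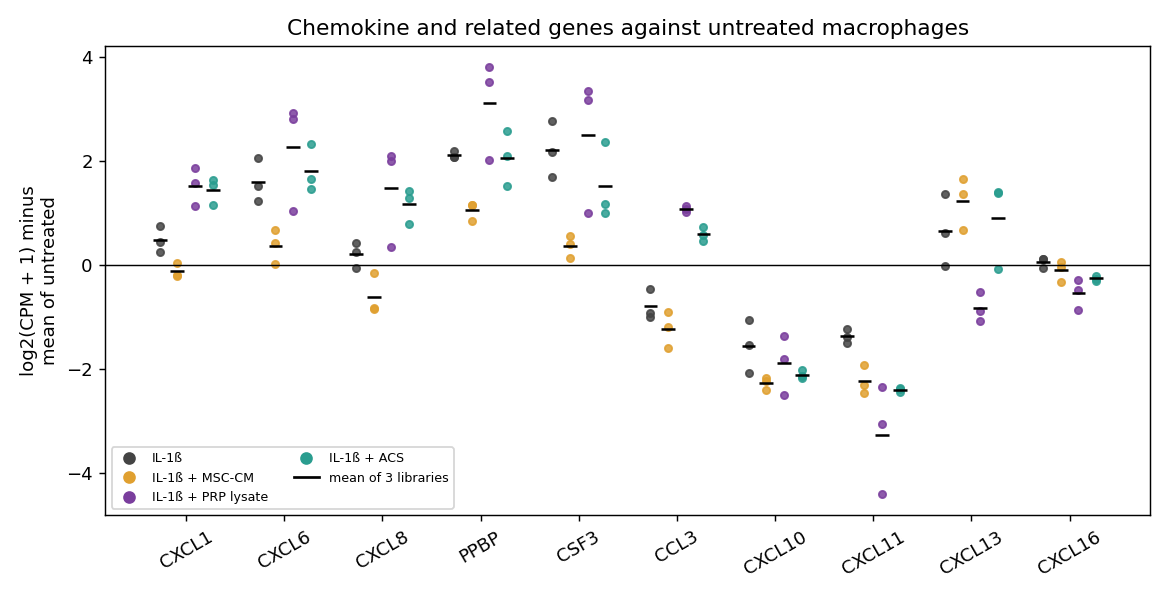
Log2(CPM + 1) of each library minus the untreated mean (vertical axis), with libraries as points coloured by treatment and means as bars. Shown are the 3 chemokine genes, 4 further CXC ligands that were called, CXCL16, CCL3 and CSF3. Points of CXCL10 and CXCL11 all lay below 0, while those of CXCL6 and PPBP all lay above it.

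CXCR1 and CXCR2 had no row under those symbols, and of 8 other CXC and atypical chemokine receptors 5 were tested. CXCR4, the receptor of CXCL12, had the largest difference with IL-1ß alone at a log2 fold change of 0.82 (adjusted p = 0.258). None of the 5 was called in any of the 10 comparisons, beside 4.98% of all genes called at least once.

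The route from the IL-1 receptor to NF-kB and the proteins that degrade chemokine messenger RNA held 1 gene called in at least 1 comparison. Of 34 genes listed 33 were tested, beside 4.98% of all genes called at least once, and none was called with IL-1ß against untreated, where their median log2 fold change was -0.21 and that of all genes -0.07. Without IL-1ß replicate 3, which stood apart, these medians were 0.0024 and 0.06. IL1R2, the decoy receptor that binds IL-1 without signalling, was the only gene of this list called in any comparison. It averaged 37.7 ± 5.89 CPM with IL-1ß, 31.2 ± 3.50 with MSC-CM and 106 ± 26.0 with ACS, and was higher with ACS than with IL-1ß alone (log2 fold change 1.45, adjusted p = 0.00575) or with MSC-CM (1.71, adjusted p = 0.00298). TNFAIP3, which encodes the NF-kB inhibitor A20, and ZC3H12A, which encodes the ribonuclease Regnase-1, had log2 fold changes of 0.82 and 0.56 with PRP lysate against IL-1ß (adjusted p = 0.0784 and 0.10), neither called.

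Of 22 genes that relay CXCR1 and CXCR2 signals in neutrophils, many also in use in macrophages, 21 were tested. FGR, a kinase of myeloid cells, was lower with PRP lysate than untreated (78.1 ± 4.23 against 178 ± 23.9 CPM, log2 fold change -1.17, adjusted p = 0.000456). The median of the 21 genes was -0.10 for PRP lysate and -0.15 for ACS against IL-1ß, and 0.11 and 0.13 over all genes. Without IL-1ß replicate 3 these were -0.16 and -0.12 for the list and -0.02 and 0.01 over all genes.

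A further list held other neutrophil attractants, their receptors and the granulocyte growth factor gene CSF3. Of its 6 tested genes 2 were called in at least 1 comparison, again against 4.98% of all genes. CCL3, a CC chemokine that attracts monocytes and neutrophils, averaged 932 ± 197 CPM with IL-1ß alone. Adding MSC-CM gave 689.5 ± 159, PRP lysate 3354 ± 136 and ACS 2402 ± 213 CPM. It was higher with PRP lysate and with ACS than with IL-1ß alone (log2 fold changes 1.87 and 1.38, adjusted p = 0.000265 and 0.00415) and than with MSC-CM (2.31 and 1.82, adjusted p = 8.1e-05 and 0.00123). The 3 PRP lysate libraries spanned only 3216 to 3489 CPM for CCL3, replicate 1 included, unlike the split seen for CXCL6 and CXCL8. CCL3 had been 1633 ± 470 CPM untreated, and with IL-1ß alone its difference was -0.79 (adjusted p = 0.145), opposite in sign to CXCL6. Against untreated it was lower with MSC-CM (-1.23, adjusted p = 0.0191) and higher with PRP lysate (1.07, adjusted p = 0.0157). CSF3 averaged 4.34 ± 1.04 CPM untreated and 24.5 ± 9.45 CPM with IL-1ß alone (log2 fold change 2.21, adjusted p = 0.104). With PRP lysate it split like CXCL6, into 9.49 CPM in replicate 1 against 52.9 and 46.6 CPM, and was called against MSC-CM (5.82 ± 0.999 CPM, log2 fold change 2.15, adjusted p = 0.0411) and against untreated (2.51, adjusted p = 0.0249).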

How the data were processed

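Poly(A)-selected RNA of 15 macrophage libraries was sequenced with a TruSeq kit on a NovaSeq instrument. The authors trimmed reads at Phred 20 with cutadapt, aligned them to EquCab3.0 with STAR 2.7.3, counted genes with HTSeq within Partek Flow, and deposited CPM values per gene. Strand setting and any gene filter were not given in the sources used here. Deposited values came out as whole reads in 99.5% of cases (tolerance 0.05 reads), which gave the depth. Differences were fitted with limma 3.58.1 (R 4.3.3, intensity trend, no replicate block) on log2(CPM + 1) for genes of mean 1 CPM or more, since the deposited unit was CPM and not counts. edgeR 4.0.16 (quasi-likelihood) and DESeq2 1.42.0 were run on the recovered reads as alternatives. Figures were drawn with matplotlib 3.10.9. The limma step was tested on simulated data.

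The chemokine set, the gene lists (other CXC ligands, receptors, IL-1 to NF-kB, CXCR1 and CXCR2 signalling, other attractants) and the marker lists were chosen with earlier results of these data known. Named were every listed chemokine gene with a row, for each the 3 genes with the highest Pearson r, and up to 4 called genes per list with the smallest adjusted p, except that 1 signalling gene is not reported here. CXCR4, TNFAIP3, ZC3H12A, NFKB2, REL, CXCL16 and the markers were added after their values were seen.

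Replicate numbers came from the labels for all groups but ACS, whose numbers follow the order of the samples. Over all 11628 genes tested, the deviations of same-numbered libraries from their group means correlated (r = 0.635, 0.255 and 0.419) for MSC-CM and PRP lysate, and in none of the other 5 pairs of groups did every number do so. No columns were identical.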

Additional observations from a re-analysis of the deposited data

How the results depend on the processing

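Of 429 log2 fold changes recomputed for the 3 chemokine genes, 369 kept their direction and side of the threshold, 39 lost a call, 17 gained one and 4 turned sign. These 4 were of small differences that had not been called. With 1 library left out at a time, CXCL1 ranged from -0.33 to 0.19 for MSC-CM against untreated (0.19 without untreated replicate 3) and from -0.0895 to 0.28 for PRP lysate against ACS (-0.0895 without PRP lysate replicate 2, -0.0638 without ACS replicate 2), and CXCL6 from -0.0503 to 0.44 for ACS against IL-1ß (-0.0503 without ACS replicate 1). The cause was not tested.

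Called chemokine genes, of 3, moved as follows. For PRP lysate against IL-1ß the count of 1 became 0 with no filter, median-ratio (RLE) or TMM scaling, edgeR, a fit of only both groups or the replicate block. For ACS against MSC-CM the count of 2 became 1 with no filter. For ACS against untreated the count of 1 became 0 with no filter or edgeR, 2 with DESeq2 and 3 in a fit of only both groups. For PRP lysate against MSC-CM it went from 3 to 1, and against untreated from 2 to 0, in a fit of only both groups. DESeq2 called 1 (CXCL6) for IL-1ß against untreated, where limma called 0, and 1 for PRP lysate against IL-1ß that was CXCL8 and not CXCL1 (CXCL1 at a log2 fold change of 0.96, under 2-fold). For PRP lysate against untreated the count of 2 became 3 with edgeR and with DESeq2, and for ACS against MSC-CM the count of 2 became 3 with DESeq2 and in a fit of only both groups. Without the 2 libraries that stood apart, an alternative added after the data were seen, the counts were 1 for IL-1ß against untreated and 3 for PRP lysate against each of IL-1ß, MSC-CM and untreated.

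With 1 library left out at a time, the counts ranged from 0 to 3 for PRP lysate against IL-1ß (3 without PRP lysate replicate 1, 0 without IL-1ß replicate 2 or 3 or PRP lysate replicate 2 or 3), 0 to 1 for ACS against IL-1ß (1 without IL-1ß replicate 1), 2 to 3 for PRP lysate against MSC-CM and 1 to 1 for ACS against MSC-CM. They ranged from 1 to 3 for PRP lysate against untreated (3 without PRP lysate replicate 1, 1 without untreated replicate 1 or 2 or PRP lysate replicate 3), 0 to 1 for ACS against untreated, where only leaving out untreated replicate 3 kept CXCL1, and 0 to 0 in the other 4 comparisons.

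The replicate number was fitted as a block without ACS. It took the count from 2 to 1 for PRP lysate against untreated and left 2 of 3 for PRP lysate against MSC-CM. The correlation of deviations passed 0.1 for every number only for MSC-CM and PRP lysate. The untreated and IL-1ß libraries share only a number with the others, and which ACS library shares a donor with which other OT library is not known here.

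Over all genes, limma called 34 for IL-1ß against untreated and 0, 359 and 257 for MSC-CM, PRP lysate and ACS against IL-1ß, and DESeq2 called 167, 2, 684 and 574. For PRP lysate and ACS against MSC-CM and PRP lysate against ACS limma called 304, 143 and 11 and DESeq2 484, 292 and 57, and for MSC-CM, PRP lysate and ACS against untreated 77, 186 and 43 and DESeq2 171, 319 and 116. The lowest counts over all alternatives were, in the same order, 0, 0, 56, 48, 167, 53, 0, 5, 50 and 5, and the highest 167, 2, 684, 705, 562, 323, 57, 189, 319 and 130. With 3 libraries a group, the standard errors of 0.429 for CXCL6 and 0.390 for CXCL8, and not sequencing depth, limit what these comparisons can resolve.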
